A study of Mus musculus with 21 samples.

Results

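Interferon-stimulated effector genes carry out the antiviral programme that cells switch on after they sense interferon. They were chosen by name, with earlier results of these data known. A list of 47 symbols was looked up in the deposited count table, and 47 of 47 were found among its 55341 genes. Of these, 46 passed the filter on low counts, which 15240 genes passed in all. Type I and type III interferons bind receptors at the cell surface, whose kinases JAK1 and TYK2 activate transcription factors of the STAT family. With IRF9 these form a complex that enters the nucleus and binds the interferon-stimulated response element (ISRE) near its target genes, while STAT dimers formed after interferon gamma bind another element, GAS. The products then block viruses at entry, in translation, in nucleotide supply and in assembly, and several of them also regulate the pathway itself.

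The genes were followed in fibro-adipogenic progenitors (FAPs), which are stromal cells of muscle that multiply once it is damaged and give rise to adipocytes and matrix-producing cells. FAPs of adult mice labelled Prdm16, which carry Prdm16 Flox/Flox and Pdgfra Cre-ERT/+, were set against FAPs of adult mice labelled WT, which carry Prdm16 Flox/Flox and Pdgfra +/+. The Cre is a tamoxifen-inducible form at Pdgfra, a gene that FAPs express, so that deletion is limited to cells in which Pdgfra is active, and both genotypes are floxed while only one carries Cre. All mice received tamoxifen on 5 consecutive days, cardiotoxin injury of the muscle 7 days later and cell sorting 5 days after injury, and the cells were then grown for 4 to 5 days. RNA was sequenced by SMART-seq2 in 2 libraries labelled Prdm16 and 3 labelled WT. H3K9me2 is a histone modification of silent chromatin, and its domains were deposited for 3 libraries of each genotype. For LaminB1, which lines the inside of the nucleus, there was 1 library of each. The labels do not say whether libraries came from separate animals, so p-values measure only the spread between these libraries.

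Library totals were 8448654 and 5839587 counts for Prdm16 1 and 2, and 10657791, 7053114 and 10284864 counts for WT 1, 2 and 3. Levels are given as CPM, counts scaled by library size to the same total, and genes are not compared with each other in level because exon lengths were not used. Prdm16 itself had 10.6 and 15.3 CPM in the libraries labelled Prdm16 1 and 2, against 16.4, 13.5 and 5.51 CPM in those labelled WT 1, 2 and 3, so the count over the whole gene did not separate the labels (edgeR log2 fold change 0.13, SE 0.47, adjusted p = 0.9996). The labels do not say which exons are deleted. The library labelled Prdm16 2 differed from the other 4 in sex-linked genes, with Xist at 480.5 and 2.66 CPM in the libraries labelled Prdm16 1 and 2, against 335, 526 and 434 CPM in those labelled WT 1, 2 and 3, and Ddx3y at 0 and 66.1 CPM in the libraries labelled Prdm16 1 and 2, against 0, 0.143 and 0 CPM in those labelled WT 1, 2 and 3. The authors' deposited table of Prdm16 over WT goes against the labels: DESeq2 run here on the labelled groups gave their p-value, within 1%, for 179 of 15240 genes, and with WT 3 and Prdm16 2 as the pair set against the other 3 libraries for 15240 of 15240. The libraries labelled WT 3 and Prdm16 1 thus stand on opposite sides in that table and in the labels, their group is in doubt, and levels below are given by library under the names of the labels. The cells expressed the FAP marker Pdgfra, with 761 and 587 CPM in Prdm16 1 and 2, against 822, 950.0 and 471 CPM in WT 1, 2 and 3. Leukocyte markers were low but not all absent. The 4 macrophage markers that passed the filter were Cd14, Cd68, Csf1r and Mrc1. Cd14 had 18.3 and 25.6 CPM in Prdm16 1 and 2, against 19.4, 14.05 and 13.4 CPM in WT 1, 2 and 3. Csf1r had 0.817 and 2.13 CPM in Prdm16 1 and 2, against 0.7696, 0.287 and 2.24 CPM in WT 1, 2 and 3. Cd68 and Mrc1 reached at most 4.44 CPM. The pan-leukocyte gene Ptprc was at 0.117 and 0.178 CPM in Prdm16 1 and 2, against 0.0962, 0.287 and 0.280 CPM in WT 1, 2 and 3, and 4 of 13 macrophage markers, Adgre1 among them, were at 0 in every library.

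In all 47 genes, the libraries labelled WT 3 and Prdm16 2 were the 2 lowest of the 5. The same pair was lowest for 14.1% of the 15240 genes tested. Because the list was chosen with earlier results of these data known, this contrast describes the set and is not an independent test. The other 3 libraries, Prdm16 1, WT 1 and WT 2, held the genes at similar, higher levels, so the split ran within each genotype label. The 47 genes together took 0.660% and 0.150% of all counts in Prdm16 1 and 2, against 0.787%, 0.796% and 0.150% in WT 1, 2 and 3. Summed over the genes, Prdm16 2 and WT 3 therefore held close to the same small share of counts, and WT 1 and WT 2 held the highest shares, close to each other. The lowest library was Prdm16 2 for 18 genes and WT 3 for 29. The highest was Prdm16 1 for 8, WT 1 for 11 and WT 2 for 28. In bulk RNA, fewer cells that express a gene and less RNA of it per cell cannot be told apart.

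**Figure D1:**
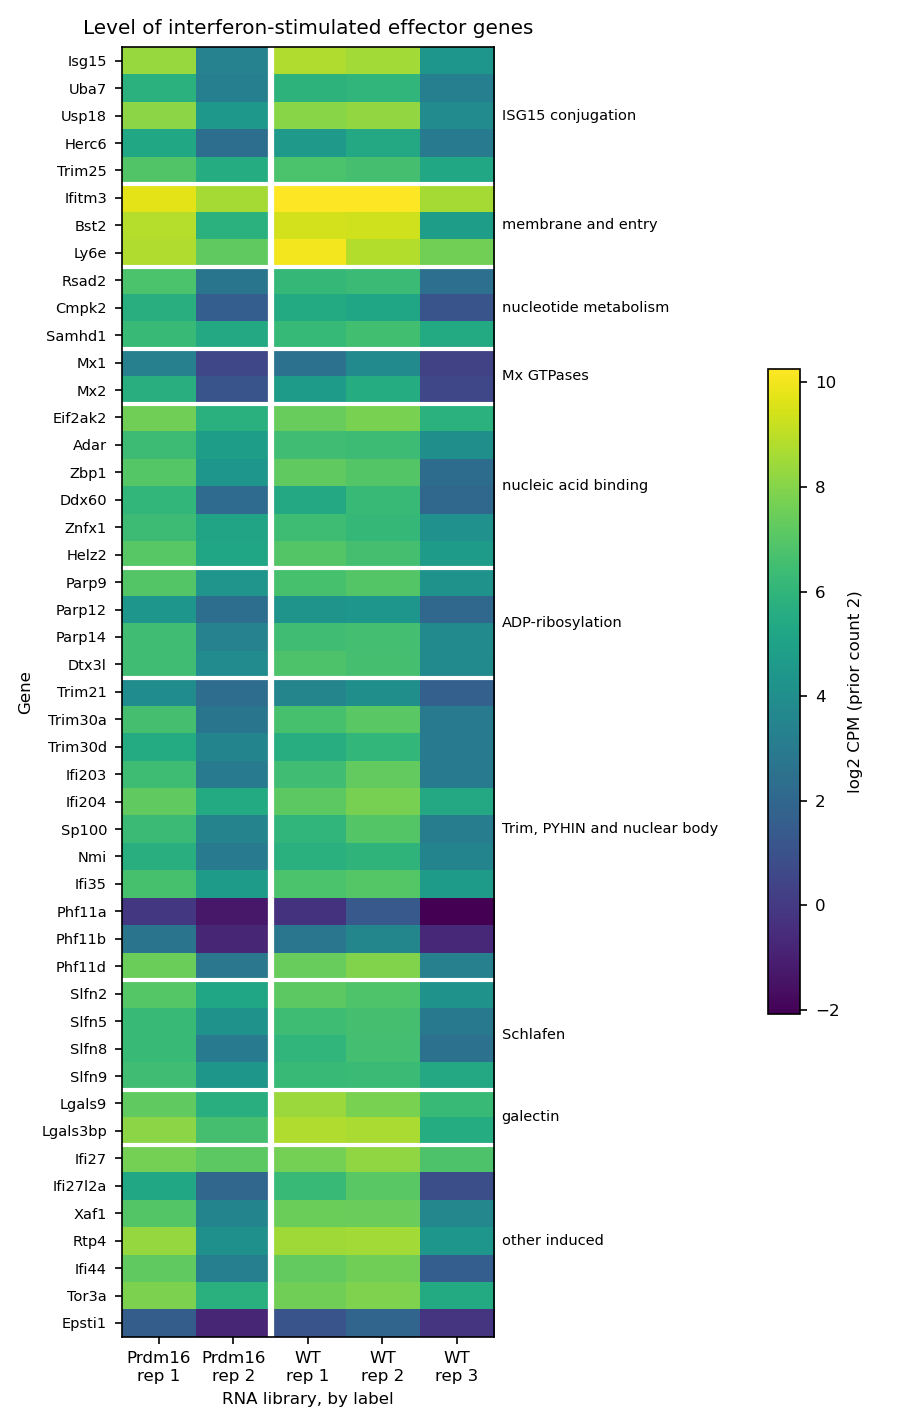
Level of the 47 effector genes in each RNA library, as log2 CPM with a prior count of 2 (colour), with libraries in columns by label and genes in rows grouped by role. The columns of Prdm16 rep 2 and WT rep 3 are darker than the other 3 in every row.

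Promoter sequences of several of these genes are shown because the ISRE is the element through which interferon is known to act on such genes. RefSeq windows of 250 bases before to 50 bases after the start (GRCm38.p6) were available for 35 of the 47 genes; the others were Ifi204, Ifi27, Ifi27l2a, Ly6e, Mx1, Mx2, Parp14, Parp9, Rtp4, Tor3a, Usp18 and Zbp1. The ISRE core was searched on both strands as GAAA, 2 bases of any kind and GAAA again, allowing overlapping matches, and it was found in 16 of 35 genes (45.7%) against 3.99% of all 27025 genes with a window. The GAS core, TTCNNNGAA with N for any base, which reads the same on both strands, was found in 6 of 35 (17.1%), against 9.55% of all genes. Those 6 were Samhd1, Adar, Ifitm3, Bst2, Ifi35 and Eif2ak2. Each stretch below holds the 150 bases before the start, 5′ to 3′ on the strand of the gene, with ISRE matches in capitals. The start is that of the promoter window, which for Ifi203, Ddx60 and Trim30d lies inside the annotated span of the gene. TTTC at the left of a capital run shows a match on the opposite strand. The first 3 carry more than 1 match: Isg15 has 3 matches that share bases at chr4:156200819-156200968 (minus strand), Bst2 has 2 that share bases at chr8:71537473-71537622 (minus strand), and Ddx60 has 2 apart from each other at chr8:61927937-61928086 (plus strand).
Isg15: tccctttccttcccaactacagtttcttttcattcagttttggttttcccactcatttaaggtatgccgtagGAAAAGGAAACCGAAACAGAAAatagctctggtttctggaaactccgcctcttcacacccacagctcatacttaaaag
Bst2: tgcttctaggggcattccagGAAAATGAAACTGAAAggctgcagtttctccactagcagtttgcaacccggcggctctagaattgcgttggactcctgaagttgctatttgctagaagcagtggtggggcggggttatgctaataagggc
Ddx60: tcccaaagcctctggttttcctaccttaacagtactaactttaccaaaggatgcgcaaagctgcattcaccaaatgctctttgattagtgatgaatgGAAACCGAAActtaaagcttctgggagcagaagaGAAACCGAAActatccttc

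Rsad2, at chr12:26456453-26456602 (minus strand), and Ifi203, at chr1:173942493-173942642 (minus strand), each carry 1 match.
Rsad2: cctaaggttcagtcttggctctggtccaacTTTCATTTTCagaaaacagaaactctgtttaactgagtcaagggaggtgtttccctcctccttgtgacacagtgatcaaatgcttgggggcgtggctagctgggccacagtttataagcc
Ifi203: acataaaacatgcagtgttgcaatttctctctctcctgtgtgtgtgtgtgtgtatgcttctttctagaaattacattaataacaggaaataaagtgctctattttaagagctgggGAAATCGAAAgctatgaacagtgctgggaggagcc

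Some neighbouring copies had similar promoters and others did not. Slfn8, at chr11:83020811-83020960 (minus strand), and Slfn9, at chr11:82991831-82991980 (minus strand), were 81.1% identical over the aligned windows, and Trim30a, at chr7:104465194-104465343 (minus strand), and Trim30d, at chr7:104507850-104507999 (minus strand), were 90.8% identical. Among other neighbours, Phf11a and Phf11b were 85.4% identical, Phf11a and Phf11d 59.5%, Phf11b and Phf11d 53.7%, Slfn2 and Slfn5 52.1% and Slfn5 and Slfn8 50.8%. The Slfn8 and Slfn9 windows, and those of Trim30a and Trim30d, are printed because each pair has the same match at nearly the same distance from the start.
Slfn8: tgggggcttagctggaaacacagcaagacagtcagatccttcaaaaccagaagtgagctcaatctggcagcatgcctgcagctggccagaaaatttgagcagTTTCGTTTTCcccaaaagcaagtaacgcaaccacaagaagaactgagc
Slfn9: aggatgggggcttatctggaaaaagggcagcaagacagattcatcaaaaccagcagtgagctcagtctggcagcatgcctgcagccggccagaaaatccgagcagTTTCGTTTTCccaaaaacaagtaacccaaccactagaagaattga
Trim30a: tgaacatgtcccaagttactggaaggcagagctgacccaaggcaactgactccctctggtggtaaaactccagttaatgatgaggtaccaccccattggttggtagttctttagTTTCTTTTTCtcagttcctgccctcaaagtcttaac
Trim30d: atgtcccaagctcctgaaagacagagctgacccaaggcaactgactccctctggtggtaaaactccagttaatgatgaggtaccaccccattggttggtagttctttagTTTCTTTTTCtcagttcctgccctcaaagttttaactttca

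Matches in these windows are a description of letters, not of binding. The difference Prdm16 2 minus Prdm16 1 had a median of -3.10 log2 CPM over the 15 tested genes with a match and -2.30 over the 19 with a window and no match. The difference of WT 3 from the mean of WT 1 and 2 had medians of -3.74 and -2.38 over the same genes. All 46 tested genes were below 0 in both differences, with or without a match. Tested genes with no window, Mx2, Rtp4 and Usp18 among them, are in neither group, and some genes with a match are near copies. Whether a match goes with a larger difference was not tested.

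ISG15 is a small ubiquitin-like protein that is joined to other proteins by UBA7, its activating enzyme, HERC6, its ligase in mice, and TRIM25, and is removed by USP18, which also blocks signalling at the receptor. Isg15 had 329 and 10.1 CPM in the libraries labelled Prdm16 1 and 2, against 435, 369 and 20.7 CPM in those labelled WT 1, 2 and 3, a mean of 169.6 ± 226 CPM over Prdm16 libraries and 275 ± 222 CPM over WT libraries (SD, n = 2 and 3). The groups overlapped, and the ratio between libraries of one label was far larger than that between labels: 32.5 for Prdm16 1 over Prdm16 2 and 19.4 for the mean of WT 1 and 2 over WT 3. By label the log2 fold change of Isg15 was -0.69 (SE 1.82; edgeR quasi-likelihood, adjusted p = 0.9996). Usp18 had 275 and 22.2 CPM in Prdm16 1 and 2, against 265, 306 and 14.4 CPM in WT 1, 2 and 3, with the same 2 libraries low. Trim25 had 120.0 and 46.5 CPM in Prdm16 1 and 2, against 108, 98.8 and 39.7 CPM in WT 1, 2 and 3, a smaller gap. The 2 other enzymes of the system were also low in Prdm16 2 and WT 3. Uba7 had 55.1 and 9.24 CPM in Prdm16 1 and 2, against 58.9, 64.5 and 9.24 CPM in WT 1, 2 and 3. Herc6 had 38.8 and 4.97 CPM in Prdm16 1 and 2, against 23.5, 41.1 and 7.65 CPM in WT 1, 2 and 3, with WT 1 below the other 2 high libraries and Prdm16 2 lowest, whereas WT 3 was lowest in Usp18 and Trim25.

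At the membrane, IFITM3 blocks fusion of viruses in endosomes, BST2 (tetherin) holds budding virus at the cell surface and LY6E is a surface protein that alters viral entry. Ifitm3 had 852 and 379.6 CPM in Prdm16 1 and 2, against 1178, 1214 and 386 CPM in WT 1, 2 and 3. Bst2 had 471 and 54.7 CPM in Prdm16 1 and 2, against 680.0, 653 and 28.1 CPM in WT 1, 2 and 3. Both were high in 3 libraries and low in Prdm16 2 and WT 3, by far less for Ifitm3 than for Bst2. Within a label, the Bst2 ratio was 8.61 between the Prdm16 libraries and 23.7 for the mean of WT 1 and 2 over WT 3, and the Ifitm3 ratios were 2.24 and 3.10. Ly6e had 435 and 148 CPM in Prdm16 1 and 2, against 1033, 458 and 198 CPM in WT 1, 2 and 3. In Ly6e, WT 1 stood above all others, and Prdm16 1 and WT 2 were close to each other. Ly6e was 1 of 2 genes whose log2 fold change by label, -0.95, exceeded its SE of 0.87 (edgeR adjusted p = 0.9996).

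RSAD2 (viperin) makes a chain-terminating nucleotide from CTP, CMPK2 is the mitochondrial kinase encoded beside it, and SAMHD1 breaks down deoxynucleotides. Rsad2 had 107 and 6.39 CPM in Prdm16 1 and 2, against 70.5, 80.1 and 5.13 CPM in WT 1, 2 and 3. Cmpk2 had 49.1 and 2.84 CPM in Prdm16 1 and 2, against 44.2, 36.4 and 1.96 CPM in WT 1, 2 and 3. These neighbours on chromosome 12 kept the same order of high and low libraries apart from WT 1 and 2. Samhd1 had 75.3 and 41.2 CPM in Prdm16 1 and 2, against 72.1, 90.9 and 43.1 CPM in WT 1, 2 and 3, and its differences within labels were among the smallest of the tested genes, -0.87 log2 CPM for Prdm16 2 minus Prdm16 1 and -0.90 for WT 3 minus the mean of WT 1 and 2. Mx1 and Mx2 encode dynamin-like GTPases that trap viral particles, and in many laboratory strains of mice both are non-functional. Mx1 had 9.69 and 1.24 CPM in Prdm16 1 and 2, against 5.77, 14.05 and 1.03 CPM in WT 1, 2 and 3. Mx2 had 49.8 and 1.95 CPM in Prdm16 1 and 2, against 25.1, 46.2 and 1.21 CPM in WT 1, 2 and 3. Mx2 was one of the genes that differed most within both labels, by -4.52 and -4.56 log2 CPM. The 2 are near relatives, so that reads may have been split between them.

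Among proteins that bind foreign or cellular RNA and DNA, EIF2AK2 (PKR) stops translation on double-stranded RNA, ADAR edits it, ZBP1 senses Z-form nucleic acid and can trigger cell death, and DDX60, ZNFX1 and HELZ2 are helicases or helicase-like proteins. Eif2ak2 had 190.4 and 54.2 CPM in Prdm16 1 and 2, against 165, 217 and 54.9 CPM in WT 1, 2 and 3. Zbp1 had 127 and 20.6 CPM in Prdm16 1 and 2, against 152, 122 and 4.57 CPM in WT 1, 2 and 3. Helz2 had 129.6 and 36.2 CPM in Prdm16 1 and 2, against 122, 96.0 and 26.0 CPM in WT 1, 2 and 3. All 3 again had Prdm16 2 and WT 3 lowest, but in Zbp1 these 2 libraries also lay apart from each other, by 2.12 log2 CPM for Prdm16 2 minus WT 3, the highest value of any tested gene of the set. Ddx60, whose promoter stretch is shown above, had 67.6 and 4.44 CPM in Prdm16 1 and 2, against 41.3, 75.7 and 3.83 CPM in WT 1, 2 and 3, and differed by -3.86 log2 CPM between the Prdm16 libraries, the most of this role. Adar had 82.6 and 27.4 CPM in Prdm16 1 and 2, against 88.6, 82.4 and 16.6 CPM in WT 1, 2 and 3. Znfx1 had 83.1 and 34.8 CPM in Prdm16 1 and 2, against 86.1, 70.1 and 17.8 CPM in WT 1, 2 and 3. For Adar and Znfx1 the low pair was not level, since WT 3 was below Prdm16 2 in both.

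PARP9, PARP12 and PARP14 are ADP-ribosyltransferase family members, and DTX3L is the ubiquitin ligase that pairs with PARP9. Parp9 had 125 and 20.2 CPM in Prdm16 1 and 2, against 102, 121 and 18.2 CPM in WT 1, 2 and 3. Dtx3l had 87.8 and 14.2 CPM in Prdm16 1 and 2, against 109.7, 97.9 and 13.2 CPM in WT 1, 2 and 3. Parp14 had 88.1 and 10.1 CPM in Prdm16 1 and 2, against 87.7, 93.0 and 13.996 CPM in WT 1, 2 and 3. In these 3 genes, which lie within 141 kb on chromosome 16, the 3 high libraries lay within a narrow range and the low 2 far under it. The annotated spans of Parp9 and Dtx3l overlap by 558 bases, so counts there are uncertain. Parp12 had 21.1 and 4.97 CPM in Prdm16 1 and 2, against 19.1, 20.6 and 4.01 CPM in WT 1, 2 and 3, at lower levels and again with Prdm16 2 and WT 3 lowest. Over the 4 genes of this role, Parp12 included, the median difference was -2.61 log2 CPM for Prdm16 2 minus Prdm16 1 and -2.63 for WT 3 minus the mean of WT 1 and 2.

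TRIM21 is an intracellular antibody receptor, TRIM30A and TRIM30D are rodent TRIM proteins, IFI203 and IFI204 are PYHIN proteins that bind DNA, SP100 is a component of nuclear bodies, and NMI and IFI35 bind each other. Phf11d had 175 and 6.75 CPM in Prdm16 1 and 2, against 167, 239 and 9.61 CPM in WT 1, 2 and 3. Ifi204 had 151 and 44.2 CPM in Prdm16 1 and 2, against 142, 211 and 40.5 CPM in WT 1, 2 and 3. Ifi35 had 101 and 25.9 CPM in Prdm16 1 and 2, against 106, 127 and 25.9 CPM in WT 1, 2 and 3. Of these, Phf11d showed the widest split, -4.65 log2 CPM between the Prdm16 libraries and -4.34 for WT 3 against the other WT libraries. Its neighbours Phf11a and Phf11b had few reads. Phf11a had 6 and 1 counts in Prdm16 1 and 2, against 6, 16 and 0 counts in WT 1, 2 and 3, and was the gene that did not pass the filter. Phf11b had 53 and 2 counts in Prdm16 1 and 2, against 68, 82 and 4 counts in WT 1, 2 and 3. Both had at most 4 counts in the low pair. Ifi203 had 85.2 and 7.99 CPM in Prdm16 1 and 2, against 87.3, 154 and 7.56 CPM in WT 1, 2 and 3, with WT 2 highest. Trim30a had 97.9 and 6.39 CPM in Prdm16 1 and 2, against 100.04, 137 and 7.65 CPM in WT 1, 2 and 3. Trim30d had 45.4 and 10.8 CPM in Prdm16 1 and 2, against 48.6, 67.5 and 7.37 CPM in WT 1, 2 and 3. The Trim30 pair, the Phf11 genes and the 2 PYHIN genes are related copies that could have exchanged reads. In each of them the same 2 libraries were lowest. Sp100 had 80.0 and 10.5 CPM in Prdm16 1 and 2, against 64.5, 123 and 8.58 CPM in WT 1, 2 and 3. Nmi had 49.1 and 8.17 CPM in Prdm16 1 and 2, against 53.2, 61.5 and 10.8 CPM in WT 1, 2 and 3. Trim21 had 14.7 and 4.80 CPM in Prdm16 1 and 2, against 11.4, 16.2 and 2.99 CPM in WT 1, 2 and 3, the smallest difference between the Prdm16 libraries among the 10 tested genes of this role, -1.57 log2 CPM.

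The Schlafen genes on chromosome 11 encode proteins that act on growth and, in some members, on tRNA. Slfn2 had 126 and 36.1 CPM in Prdm16 1 and 2, against 142, 117 and 18.7 CPM in WT 1, 2 and 3. Slfn5 had 73.4 and 19.0 CPM in Prdm16 1 and 2, against 86.3, 98.0 and 7.28 CPM in WT 1, 2 and 3. In both, WT 3 was below Prdm16 2. Slfn9 had 88.1 and 21.3 CPM in Prdm16 1 and 2, against 73.7, 79.3 and 40.3 CPM in WT 1, 2 and 3, the reverse order of the low pair, and its near copy Slfn8 had 78.2 and 7.46 CPM in Prdm16 1 and 2, against 66.0, 94.7 and 5.69 CPM in WT 1, 2 and 3. Slfn8 and Slfn9 therefore differed in size, by -3.74 and -0.92 log2 CPM for WT 3 minus the mean of WT 1 and 2, with the upstream stretches shown above. Lgals9 encodes a galectin and Lgals3bp a secreted galectin-binding glycoprotein. Lgals9 had 151 and 50.3 CPM in Prdm16 1 and 2, against 337, 219 and 73.6 CPM in WT 1, 2 and 3. Lgals3bp had 273 and 97.9 CPM in Prdm16 1 and 2, against 444, 417 and 47.3 CPM in WT 1, 2 and 3. Prdm16 1 lay below WT 1 and 2 in both. Lgals9 had the smallest unadjusted p of the set, 0.249, with a log2 fold change of -1.06 (SE 0.81; edgeR adjusted p = 0.9996).

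Of the other induced genes, RTP4 is a chaperone of G protein-coupled receptors with antiviral activity, XAF1 binds the apoptosis inhibitor XIAP, IFI27 and IFI27L2A are small hydrophobic proteins, and TOR3A is a torsin ATPase. Rtp4 had 309 and 17.2 CPM in Prdm16 1 and 2, against 355, 375 and 21.1 CPM in WT 1, 2 and 3. Ifi27 had 201 and 142 CPM in Prdm16 1 and 2, against 202, 291 and 112 CPM in WT 1, 2 and 3. Tor3a had 222 and 53.6 CPM in Prdm16 1 and 2, against 192, 233 and 43.6 CPM in WT 1, 2 and 3. Rtp4 varied widely, while Ifi27 had the smallest difference between the Prdm16 libraries, -0.51 log2 CPM. The annotated span of Ifi27, 6057 bases, lies wholly within that of Ifi27l2a, so their counts are uncertain. Ifi27l2a had 38.3 and 3.73 CPM in Prdm16 1 and 2, against 74.8, 138 and 1.59 CPM in WT 1, 2 and 3. Ifi27l2a had the lowest log2 fold change by label, -1.74, with an SE of 1.90 (edgeR adjusted p = 0.9996). In it, Prdm16 1 lay between the low pair and WT 1. Ifi44, at 150.5 and 9.24 CPM in Prdm16 1 and 2, against 154, 189 and 2.80 CPM in WT 1, 2 and 3, showed the widest gap among WT libraries, -5.82 log2 CPM. Xaf1 had 123 and 10.8 CPM in Prdm16 1 and 2, against 177, 170.3 and 12.04 CPM in WT 1, 2 and 3. Epsti1, near the limit of the filter, had 23 and 2 counts in Prdm16 1 and 2, against 20, 25 and 7 counts in WT 1, 2 and 3.

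Tested by label, no effector gene passed the test. edgeR called 0 of 46 at an adjusted p of 0.05 and 0 at an unadjusted p of 0.05, against 0.00% and 2.48% of the 15240 genes tested, which are 0 and 378 genes. DESeq2 and limma-voom called 0 of them as well. Their log2 fold changes ran from -1.74 for Ifi27l2a to 0.13 for Rsad2 and Mx2, with a median of -0.39 against 0.00053 over all genes tested. 41 of 46 were below 0 (49.9% of all genes tested) and 5 above. The median SE was 1.12 for these genes and 0.33 for all genes tested, and only Ly6e and Lgals9 had a log2 fold change larger than its SE. No gene had both Prdm16 libraries below all WT libraries (8.96% of genes tested) or above them (8.83%). Without Prdm16 2 the median log2 fold change was 0.35, and without Prdm16 1 it was -2.28, so the direction of the median rests on which Prdm16 library is kept. Without WT 1, 2 or 3 it was -0.19, 0.03 or -0.87. The next fit cannot test genotype, because the only Prdm16 library it keeps, Prdm16 2, was below WT 1 and 2 in all 47 genes. The direction of its calls was thus fixed by the choice of libraries, and its counts describe only the split. With both libraries labelled WT 3 and Prdm16 1 left out, which leaves Prdm16 2 against WT 1 and 2 and assumes that the lone library varies as they do, edgeR called 29 of 47 genes, all lower (0.521% of 15151 genes tested), 46 had an unadjusted p under 0.05 (6.31% of genes), and the median was -2.76.

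The authors' deposited table gave a different count, on the grouping described above. The authors' deposited table called 45 of the 47 genes lower and 0 higher at their adjusted p of 0.1, against 5.58% called lower and 1.97% called higher of the 6237 genes with an adjusted p, and 2.28% called lower of the 15240 genes tested here. Since WT 3 and Prdm16 2 were the 2 lowest libraries in all 47 genes, that grouping fixed the direction of these calls. The count thus describes the split and is not a separate test of genotype. That table's log2 fold changes, which set the pair WT 3 and Prdm16 2 over the other 3 libraries, had a median of -2.64 over the called genes and ran from -4.95 for Ifi27l2a to -0.71 for Ifi27. Isg15 was at -4.56 and Bst2 at -3.84 in the authors' deposited table. Epsti1, with an adjusted p of 0.215, and Phf11a, with none, were the 2 genes it did not call. The 2 comparisons use the same 5 libraries and place WT 3 and Prdm16 1 on opposite sides.

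**Figure D2:**
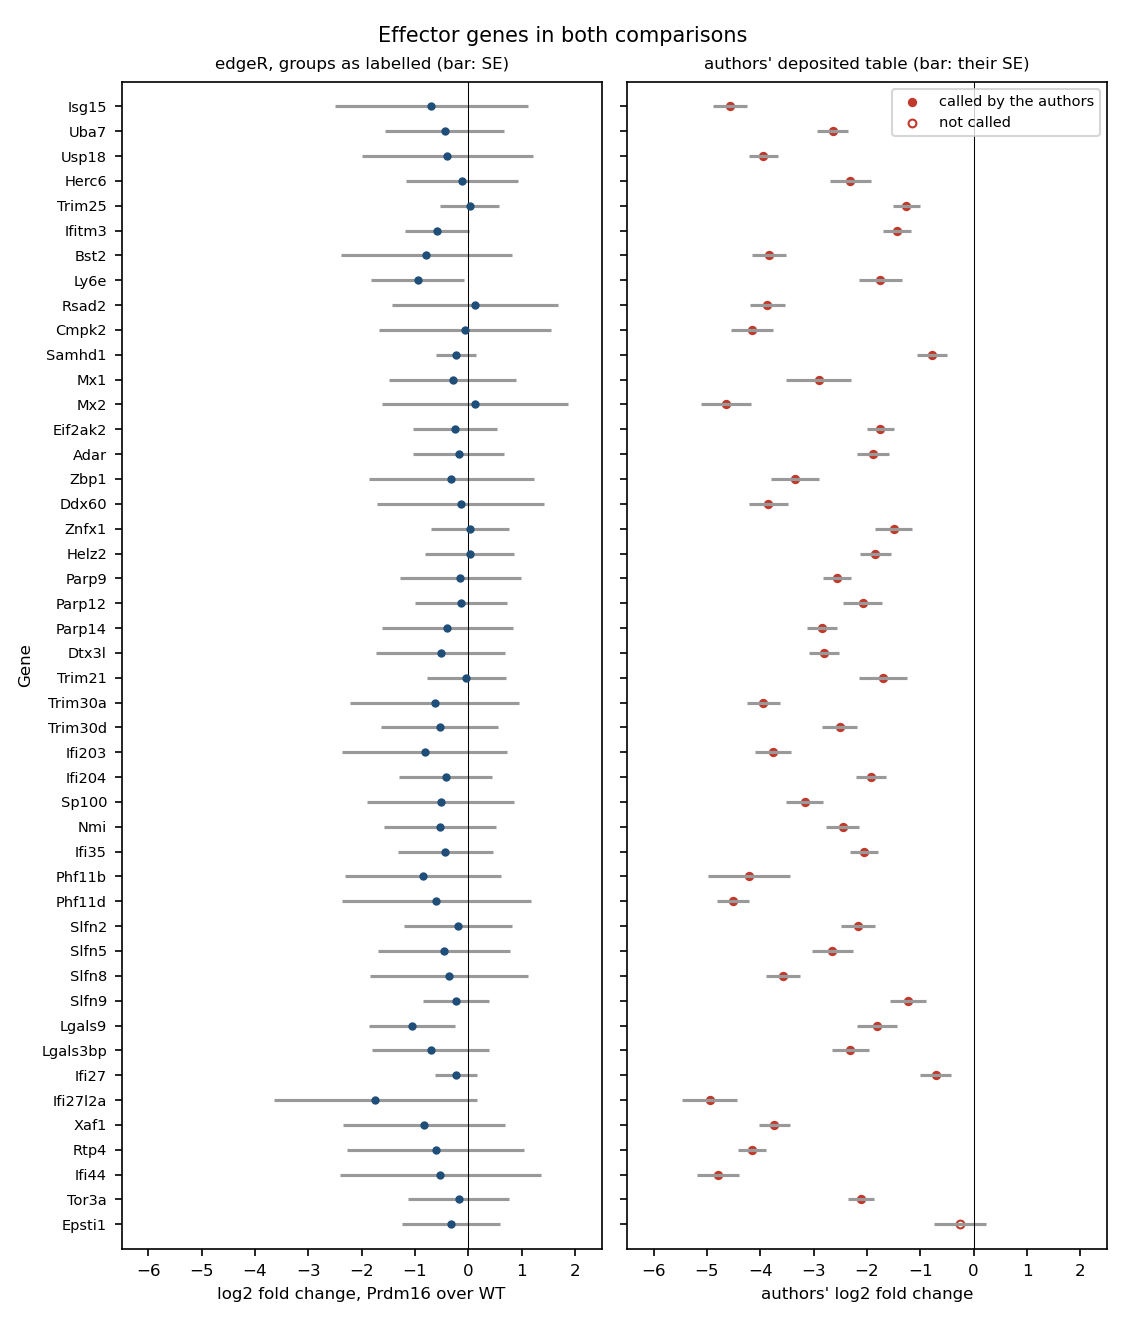
Log2 fold change of the 46 tested effector genes, by label from edgeR (left, bars are 1 SE) and as given in the authors' deposited table (right, bars are the authors' SE; open circle, not called), with genes in rows. By label all bars but those of Ly6e and Lgals9 cross 0, with a median of -0.39, while the authors' values for called genes lie between -4.95 and -0.71.

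The size of the split followed the gene. Prdm16 2 minus Prdm16 1 ran from -4.99 log2 CPM for Isg15 to -0.51 for Ifi27, with a median of -2.58 over the 46 tested genes, against 0.0022 over all genes tested, whose 5th and 95th percentiles were -0.91 and 1.00. WT 3 minus the mean of WT 1 and 2 ran from -5.82 for Ifi44 to -0.90 for Samhd1, with a median of -2.82, against -0.0023 over all genes, with percentiles of -1.36 and 1.05. Across the 46 genes the 2 differences were correlated (Pearson r = 0.80, Spearman rho = 0.82), and across all genes tested Pearson r was 0.36. Genes are not independent replicates, and the 2 differences share no library. Isg15, Phf11d, Mx2 and Rtp4 were far down in both, and Samhd1, Ifi27, Trim25 and Ifitm3 were near the top in both. Median differences varied between the 10 roles. Those of Prdm16 2 minus Prdm16 1 were -4.00 for nucleotide metabolism, -3.63 for the Mx genes, -3.28 for the other induced genes, -2.90 for ISG15 conjugation, -2.73 for the Trim, PYHIN and nuclear body genes, -2.61 for ADP-ribosylation, -1.99 for the Schlafen genes, -1.82 for nucleic acid binding, -1.55 for membrane and entry and -1.53 for galectins. Those of WT 3 minus the mean of WT 1 and 2, in the same order of roles, were -3.81, -3.72, -3.83, -2.71, -3.13, -2.63, -3.19, -2.23, -1.79 and -2.53, so the order of the roles was not the same in both. The roles hold 2 to 10 tested genes each, and their difference was not tested. Prdm16 1 lay close to WT 1 and 2, and Prdm16 2 to WT 3: Prdm16 1 minus the mean of WT 1 and 2 had a median of -0.13 (30 of 46 below 0), and Prdm16 2 minus WT 3 had a median of 0.22 (18 of 46 below 0). The first of these ran from -1.40 for Ifi27l2a to 0.55 for Mx2, and the second from -1.02 for Isg15 to 2.12 for Zbp1. WT 2 minus WT 1 had a median of 0.21 and ran from -1.17 for Ly6e to 1.25 for Mx1.

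**Figure D3:**
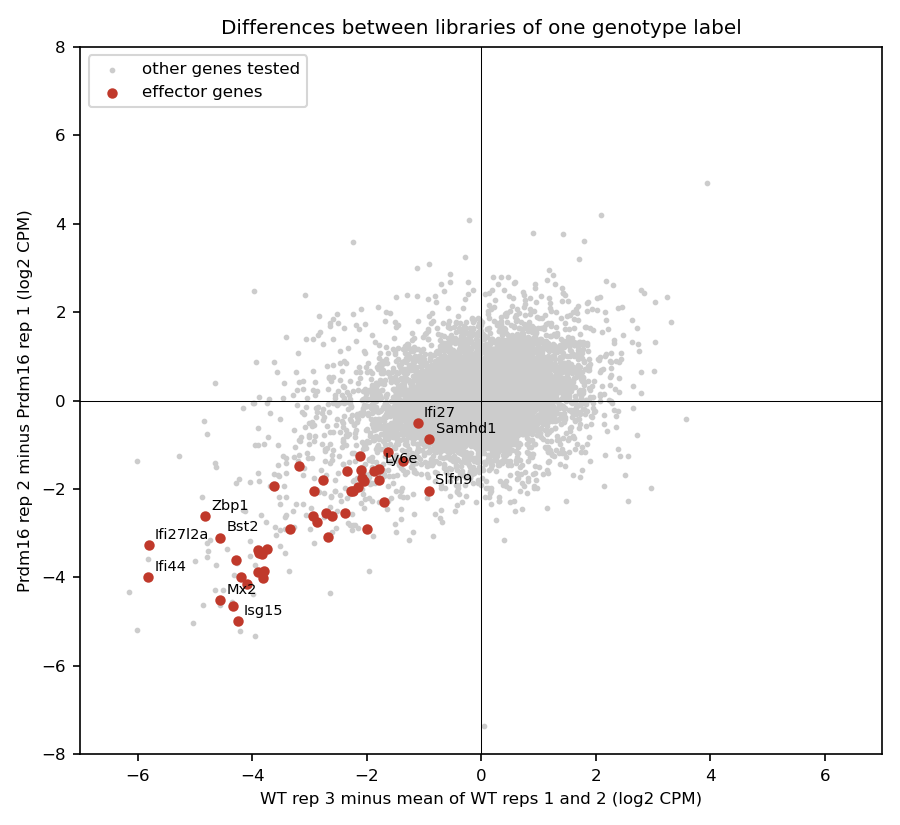
Each point is a gene tested (red, effector genes; grey, the others), with the log2 CPM difference WT rep 3 minus the mean of WT reps 1 and 2 across and Prdm16 rep 2 minus Prdm16 rep 1 up. All red points lie below 0 on both axes, with medians of -2.82 and -2.58.

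The members of the pathway upstream of these genes did not share the split at every level. None of the 10 interferon genes listed passed the filter, 6 were at 0 in every library, and the highest level of any was 0.467 CPM. Ifnb1, for interferon beta, had 0.117 and 0 CPM in Prdm16 1 and 2, against 0.0962, 0.143 and 0 CPM in WT 1, 2 and 3. Ifne had 0.467 and 0.178 CPM in Prdm16 1 and 2, against 0, 0 and 0 CPM in WT 1, 2 and 3. A count of 0 allows up to 0.531 CPM in Prdm16 2 and 0.279 CPM in WT 3 (3 counts, counting error only). Those limits hold only for the interferon genes at 0 in these 2 libraries. Among receptor and kinase genes, Jak1 had 347 and 373 CPM in Prdm16 1 and 2, against 315, 375 and 285 CPM in WT 1, 2 and 3. Ifnar2, a chain of the type I receptor, had 65.3 and 57.0 CPM in Prdm16 1 and 2, against 74.3, 95.5 and 43.2 CPM in WT 1, 2 and 3, with WT 3 and Prdm16 2 lowest. Its differences were -0.19 log2 CPM for Prdm16 2 minus Prdm16 1 and -0.96 for WT 3 minus the mean of WT 1 and 2, the second beyond the -0.90 of the effector gene Samhd1. Over the 8 tested receptor and kinase genes, Prdm16 2 minus Prdm16 1 had a median of 0.07 log2 CPM and WT 3 minus the mean of WT 1 and 2 one of -0.09, and Ifnar2 was the 1 gene of the 8 with Prdm16 2 and WT 3 lowest, against 14.1% of all genes tested. The authors' deposited table called 0 of them, against 2.28% called lower of all genes tested here.

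Among 8 tested STAT and IRF genes, the authors' deposited table called 3 lower, namely Stat2, Irf9 and Irf7, singled out after their values were seen. Of all genes tested here that table called 2.28% lower, which is the background for each list in this paragraph. Irf7, which drives interferon production, had 229 and 24.3 CPM in Prdm16 1 and 2, against 312, 277 and 10.5 CPM in WT 1, 2 and 3. Stat2 had 148 and 32.7 CPM in Prdm16 1 and 2, against 113, 137 and 19.9 CPM in WT 1, 2 and 3. Irf9 had 145 and 36.9 CPM in Prdm16 1 and 2, against 118, 161 and 26.3 CPM in WT 1, 2 and 3. These are themselves interferon-induced genes, and Prdm16 2 and WT 3 were lowest in each. Irf1 had 65.0 and 45.8 CPM in Prdm16 1 and 2, against 60.7, 53.5 and 35.5 CPM in WT 1, 2 and 3. Irf2 had 24.9 and 19.5 CPM in Prdm16 1 and 2, against 38.3, 32.7 and 19.6 CPM in WT 1, 2 and 3. Prdm16 2 and WT 3 were lowest in both of these as well, by smaller differences, and neither was called in the authors' deposited table. In all, the pair was lowest in 5 of the 8 genes, against 14.1% of all genes tested. Of 9 tested genes for nucleic acid sensors and adaptors, the authors' deposited table called Ddx58, Ifih1, Dhx58 and Tlr3 lower, all singled out after their values were seen. Ddx58, for RIG-I, had 189 and 37.5 CPM in Prdm16 1 and 2, against 195, 191 and 45.0 CPM in WT 1, 2 and 3. Ifih1, for MDA5, had 115 and 18.8 CPM in Prdm16 1 and 2, against 112, 119.8 and 13.7 CPM in WT 1, 2 and 3. Both sensors were lowest in Prdm16 2 and WT 3. Tbk1, a kinase downstream of the sensors, had 63.3 and 55.2 CPM in Prdm16 1 and 2, against 39.8, 52.5 and 55.1 CPM in WT 1, 2 and 3, with no low pair. The pair was lowest in 4 of the 9 sensor and adaptor genes, against the same 14.1%. Of 6 tested inhibitors, the authors' deposited table called 1 lower, Socs3, with a log2 fold change of -0.73 (adjusted p = 0.0334). Socs3, a feedback inhibitor of cytokine signalling, had 203 and 105 CPM in Prdm16 1 and 2, against 183, 133 and 80.0 CPM in WT 1, 2 and 3. Socs1, a feedback inhibitor of JAK kinases, had 3.03 and 2.31 CPM in Prdm16 1 and 2, against 29.1, 5.30 and 2.61 CPM in WT 1, 2 and 3, with WT 1 far above the rest. Prdm16 2 and WT 3 were lowest in both Socs genes and in none of the other 4 inhibitors, again against 14.1% of all genes tested. edgeR called 0 genes of these lists by label, with 0 at an unadjusted p of 0.05.

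**Figure D4:**
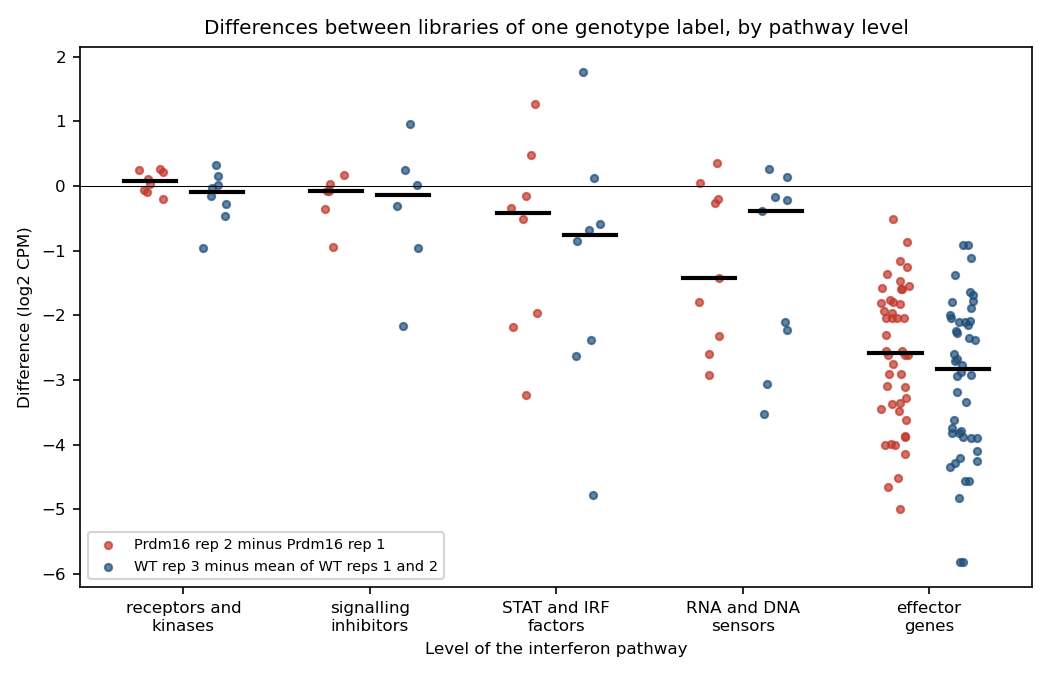
Log2 CPM differences between libraries of one label, Prdm16 rep 2 minus Prdm16 rep 1 (red) and WT rep 3 minus the mean of WT reps 1 and 2 (blue), for tested genes of 4 upstream lists and for the effector genes. Points are genes and black lines are medians, which are near 0 for receptors and kinases (0.07 and -0.09) and -2.58 and -2.82 for effector genes.

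Markers of other cells were measured beside the split. The 13 macrophage markers summed to 24.6 and 33.9 CPM in Prdm16 1 and 2, against 26.3, 20.9 and 20.6 CPM in WT 1, 2 and 3, and 4 of 9 lymphocyte markers were at 0 everywhere. The 5 plasmacytoid dendritic cell markers include Bst2, an effector gene here, and 1 of the 5 was at 0 in every library. The 7 myoblast markers summed to 167 and 213 CPM in Prdm16 1 and 2, against 80.4, 83.7 and 239.9 CPM in WT 1, 2 and 3. The 10 FAP markers summed to 6666 and 6609.9 CPM in Prdm16 1 and 2, against 6645, 7126 and 3618 CPM in WT 1, 2 and 3. WT 3 had the lowest FAP sum and the highest myoblast sum, and Prdm16 2 the second highest myoblast sum. The FAP sum of Prdm16 2 lay near that of the 3 high libraries, and Col1a1 and Col3a1 made up most of it. Of the 9 tested FAP markers, 4 were lowest in Prdm16 2 and WT 3, namely Pdgfra, Ly6a, Pi16 and Col3a1, against 14.1% of all genes tested. The authors' deposited table called the first 3 lower, against 2.28% of all genes tested here, and these 3 were singled out after their values were seen. The other tested markers did not have that pair lowest, and Cd34, Col1a1, Dcn and Mfap5 were highest in Prdm16 2. Cd34 had 413 and 448 CPM in Prdm16 1 and 2, against 279, 314 and 317 CPM in WT 1, 2 and 3. Col1a1 had 1597 and 2296 CPM in Prdm16 1 and 2, against 1681, 1708 and 1155 CPM in WT 1, 2 and 3. Pdgfra, a receptor that marks FAPs, had 761 and 587 CPM in Prdm16 1 and 2, against 822, 950.0 and 471 CPM in WT 1, 2 and 3. Ly6a, for SCA1, had 1213 and 772 CPM in Prdm16 1 and 2, against 1366, 1703 and 760.4 CPM in WT 1, 2 and 3. Pi16 had 31.3 and 12.6 CPM in Prdm16 1 and 2, against 38.5, 26.4 and 2.80 CPM in WT 1, 2 and 3. In Pdgfra and Ly6a the differences between libraries were smaller than the median of the effector genes. In Pi16, WT 3 minus the mean of WT 1 and 2 was -3.40 log2 CPM, beyond the effector median of -2.82. Prdm16 2 minus Prdm16 1 was -1.29 for Pi16. Dcn and Lum were also lowest in WT 3, by -2.06 and -2.53 log2 CPM from the mean of WT 1 and 2. Their values for Prdm16 2 minus Prdm16 1 were 0.0328 and -0.0955. Cd34 and Mfap5 were higher in WT 3 than that mean, by 0.10 and 0.12 log2 CPM. The part of cell make-up in the split was not tested, and neither was that of the sex-linked difference of Prdm16 2, which WT 3 did not share.

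In chromatin, most effector genes lay outside the deposited domains. Of the 47 genes, 39 had no base in an H3K9me2 domain of any of the 6 libraries. The 8 others had at least 0.5 of the gene body in domains in at least 1 library. By that limit, 93.1% of 13569 located genes were covered in no library, a larger share than 39 of 47. Counting genes with a share of at least 0.5, Prdm16 libraries 1, 2 and 3 had 6, 6 and 7 of the 47 (2.62%, 3.39% and 2.94% of located genes), and WT libraries 1, 2 and 3 had 3, 6 and 0 (4.80%, 2.73% and 3.71%). The 8 genes concerned lay at 5 places, so they are not independent. No gene was covered in every library of one genotype and none of the other, and none was covered in all 6. Few genes of any kind were: 0.0663% of located genes were covered in every Prdm16 library and no WT library, 0.125% in no Prdm16 library and every WT library, and 0.663% in all 6, so 0 of 47 is near the background. The ChIP libraries carry the same labels as the RNA libraries but are not said to be from the same cells.

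Rsad2 (chr12:26442743-26456452, minus strand) and Cmpk2 (chr12:26469117-26479837, plus strand) lay together inside 1 domain of 3129 to 3357 kb in 5 libraries, all 3 Prdm16 libraries and WT 1 and 2. The authors' scores for it were 173.5, 181 and 161 in Prdm16 1, 2 and 3 and 180.1 and 128 in WT 1 and 2. In WT 3 one domain ended at 26223000 and the next began at 26559001, so both genes fell in a gap of 336 kb. Mx1 (chr16:97447035-97462906) and Mx2 (chr16:97536081-97560901) lay in domains of 399 to 1524 kb in the 3 Prdm16 libraries. In WT 2 a domain of 396 kb held both, in WT 1 a domain of 159 kb held only Mx1, and WT 3 had a gap of 372 kb there. Such gaps were also seen at other genes. Of 114 genes covered in the other 5 libraries, 24 were not covered in WT 3, and of 132 covered in all but Prdm16 1, 42 were not covered there.

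Trim30a was covered whole in Prdm16 1 and 3, and Trim30d over 60.7% and 76.6% of its body there, by domains of 135 and 195 kb. Both had 0% in Prdm16 2 and in every WT library. Trim21, elsewhere on chromosome 7, was covered in Prdm16 2 and in WT 2. Rtp4, whose annotated span runs from 23520219 to 23614222 on chromosome 16, was covered over 65.1% in Prdm16 2 and 3 and over 52.4% in WT 2. In RNA, Prdm16 2 minus Prdm16 1 was -4.01 log2 CPM for Rsad2, -4.00 for Cmpk2, -2.75 for Mx1, -4.52 for Mx2, -4.15 for Rtp4, -3.89 for Trim30a, -2.04 for Trim30d and -1.57 for Trim21. Whether coverage goes with the size of these differences was not tested. LaminB1 domains held 0 of 47 genes over a share of 0.5 in the Prdm16 library and 0 in the WT library (0.604% and 1.50% of located genes). Only Sp100 was touched, over 23.4% of its body in the Prdm16 library and 30.1% in the WT library, from 1 domain each.

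**Figure D5:**
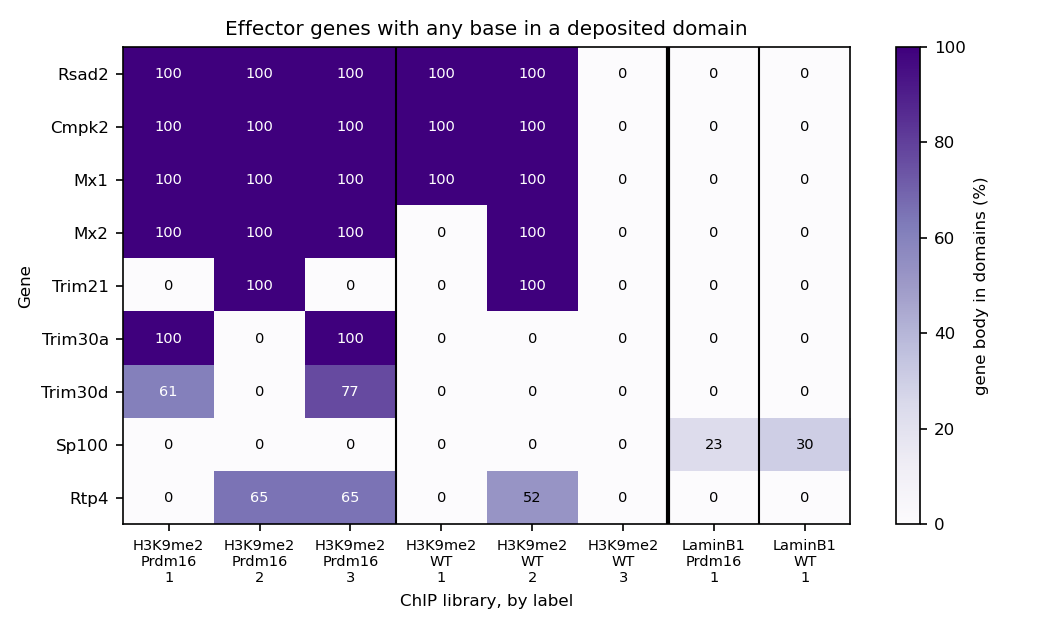
Percent of the gene body inside a deposited domain, for the 9 effector genes with any base in one (rows), in each ChIP library by label (columns). WT rep 3 of H3K9me2 has 0 in every row, and LaminB1 reaches Sp100 only.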

How the data were processed

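The 5 RNA, 6 H3K9me2 and 2 LaminB1 libraries were analysed, and 8 inputs were left out. Per the submitters' processing notes, the tools were STAR 2.7, featureCounts, Bowtie 1.2.2 and DESeq2 1.20, on builds GRCm38, mm10 and dm6. Which did what, how domains were called and whether strand was counted are not stated in the labels. Gene-level raw counts, whole numbers, were deposited by the authors. The deposited comparison table held the authors' mean normalized signal, log2 fold change with its SE, p-value and adjusted p-value, with limits of 0.5 and 0.1 in its name. Each deposited domain list held positions and the authors' score, whose unit is not given. How deeply those libraries were sequenced is unknown. In R 4.3.3, edgeR 4.0.16 was fitted to the counts (default expression filter, TMM scaling, robust quasi-likelihood, two-sided, Benjamini-Hochberg over all 15240 genes, threshold 0.05), with DESeq2 1.42.0 and limma 3.58.1 (voom) as alternatives, and the fits were tested on simulated data. Log2 CPM used a prior count of 2. DESeq2 was also run on the labelled grouping and on 1 other to check the authors' p-values. Gene spans, names and promoter windows came from RefSeq tables of GRCm38.p6, whose coordinates the domain positions were taken to share. The gene body counted as covered at a share of 0.5 or more. Tables were handled in Python 3.11.15 with pandas 2.3.3 and numpy 2.4.6 and drawn with matplotlib 3.10.9. The effector genes, the pathway and marker lists and the alternatives were chosen with earlier results of these data known. Libraries are named by label. One gene of the STAT and IRF list is not reported here. The rule for named genes takes up to 3 genes per role by mean CPM, genes with an unadjusted p under 0.05 or groups that do not overlap, and near-identical copies. Other effector genes are named where they set a range. Genes outside the set come from the lists, up to 4 each by smallest unadjusted p. Further genes of the lists are named outside that rule, some of them after their values were seen.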

Additional observations from a re-analysis of the deposited data

How the results depend on the processing

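The count of genes called by label was 0 in the edgeR fit, 0 with DESeq2 size factors or limma-voom, 1 with upper-quartile scaling, 1 with DESeq2, 25 with no filter on low counts, 93 without the libraries labelled WT 3 and Prdm16 1, and 0 to 4 with each library left out in turn. Effector genes called were 0 in all of these except the fit without those 2 libraries, with 29. Their median log2 fold change was -0.39, and it was -0.36 to -0.41 under other scalings, with no filter and with DESeq2, -0.24 with limma-voom and -2.76 without those 2 libraries. With each library left out in turn it ran from -2.28 to 0.35, both ends coming from leaving out a Prdm16 library. The fit without WT 3 and Prdm16 1 sets the low library Prdm16 2 against WT 1 and 2, so its direction was fixed beforehand and it cannot test genotype. The labels do not say that replicate numbers pair the libraries. Deviations of same-numbered libraries from the means of their labels correlated at 0.21 for number 1 and -0.20 for number 2 over 15240 genes. The deviations of the 2 Prdm16 libraries mirror each other, so these values cannot decide whether the numbers mark pairs. With the replicate block, 1 gene and 0 effector genes were called, and the median was -1.36. The genes whose sign turned under the block stood at -0.45 for Trim25, -1.36 for Rsad2, -1.34 for Mx2, -0.52 for Znfx1 and -0.65 for Helz2. Those 5 also turned without the libraries labelled WT 3 and Prdm16 1, at -1.17 for Trim25, -3.58 for Rsad2, -4.20 for Mx2, -1.19 for Znfx1 and -1.61 for Helz2. With limma-voom the signs that turned were 0.10 for Cmpk2, 0.036 for Mx1, 0.046 for Adar, 0.41 for Zbp1, 0.039 for Parp12, 0.24 for Trim21, 0.085 for Slfn2, 0.089 for Slfn5 and 0.089 for Ifi44. The cause was not tested. With each library left out in turn, the log2 fold change kept its sign for Ifitm3, Ly6e, Lgals9, Lgals3bp and Ifi27l2a and turned for the other 41 tested genes, over -4.78 to 0.28 for Isg15, -2.28 to 0.33 for Uba7, -3.16 to 0.51 for Usp18, -2.29 to 0.71 for Herc6, -0.84 to 0.56 for Trim25, -3.08 to 0.069 for Bst2, -3.04 to 1.05 for Rsad2, -3.29 to 0.85 for Cmpk2, -0.76 to 0.15 for Samhd1, -2.48 to 0.71 for Mx1, -3.63 to 1.07 for Mx2, -1.45 to 0.40 for Eif2ak2, -1.22 to 0.42 for Adar, -2.19 to 0.48 for Zbp1, -3.20 to 0.77 for Ddx60, -0.76 to 0.53 for Znfx1, -1.19 to 0.69 for Helz2, -2.02 to 0.64 for Parp9, -1.57 to 0.55 for Parp12, -2.70 to 0.46 for Parp14, -2.39 to 0.27 for Dtx3l, -1.10 to 0.55 for Trim21, -3.69 to 0.28 for Trim30a, -1.95 to 0.16 for Trim30d, -3.39 to 0.058 for Ifi203, -1.59 to 0.22 for Ifi204, -2.66 to 0.32 for Sp100, -2.38 to 0.25 for Nmi, -1.76 to 0.24 for Ifi35, -4.08 to 0.023 for Phf11b, -4.38 to 0.35 for Phf11d, -1.38 to 0.46 for Slfn2, -1.77 to 0.22 for Slfn5, -2.91 to 0.51 for Slfn8, -1.62 to 0.47 for Slfn9, -0.53 to 0.13 for Ifi27, -3.49 to 0.049 for Xaf1, -3.88 to 0.32 for Rtp4, -3.66 to 0.40 for Ifi44, -1.57 to 0.52 for Tor3a and -2.48 to 0.43 for Epsti1. Without Prdm16 2, 36 of 46 turned.

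The mean number of effector genes in H3K9me2 domains was 6.33 for Prdm16 libraries and 3 for WT libraries, of which WT 3 had 0. Shares of all located genes were 2.62%, 3.39% and 2.94% in Prdm16 1, 2 and 3, and 4.80%, 2.73% and 3.71% in WT 1, 2 and 3. Counted at the start and 2 kb on either side, for the 35 genes with a strand in the RefSeq table, the mean number was 3 and 1.67. At starts the shares of all located genes were 2.05%, 2.28% and 1.91% in Prdm16 libraries and 3.92%, 1.98% and 2.96% in WT libraries. These genes are not independent, and the difference between genotypes was not tested. Mx1, Mx2 and Rtp4, covered in some libraries, had no strand and were left out, so the 2 rules count different genes. For gene bodies, with each library left out in turn, the mean ran from 6 to 6.5 for Prdm16 libraries and from 1.5 to 4.5 for WT libraries. The LaminB1 count of 0 and 0 became 1 and 1 at the start, and 1 in the WT library at a share of 0.25, which is Sp100 each time. A stricter adjusted p of 0.05 left 45 genes called in the authors' deposited table. At 2 and 3 RNA libraries, and with the spread of these genes within labels, the labelled comparison cannot show that the genotypes act alike. Phf11a, Phf11b and Epsti1 rest on few reads, and intervals for domain shares could not be given because their depth is unknown.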
